A study of Homo sapiens with 402 samples.

Results

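Heme is broken down by heme oxygenase and biliverdin reductase, and the iron it releases is stored in ferritin. The 10 genes described here cover these steps: HMOX1 and HMOX2, BLVRA and BLVRB, the ferritin chains FTL and FTH1, the transferrin receptor TFRC, the iron exporter ferroportin SLC40A1, the heme transporter SLC48A1 and ferrochelatase FECH. They were chosen by name from the 34718 gene symbols counted in most libraries, and all 10 were found there. The smaller files of the DDE plate listed 15081 symbols, 9 of the 10 among them, without SLC40A1.

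MCF10A, an established human breast epithelial line that does not form tumours, was exposed to 21 chemicals at 0.025, 0.25, 2.5 and 25 µM for 48 h, and RNA was counted in 402 single-well libraries made with plexWell, a plate-based barcoding method. All wells held the same wild-type line at the same passage, usually 4 wells per dose. Arsenic, cadmium, copper, lead and mercury stood on plate 3153-AT with 15 water controls. BPA, BPF, BPS, MPB and PPB stood on plate 3206-AT with 15 DMSO controls. PFDA, PFNA, PFOS and Phenanthrene were compared with 12 DMSO controls of plate 3240-AT, and PFOA with its 4 water controls. DCB_14, DCP_25, PCB153, PCB187 and Thiram, a dithiocarbamate fungicide, stood on plate 3284-AT with 15 DMSO controls. DDE had a plate of its own with 8 controls, whose labels name water and plate 3153-AT while their barcode is that of the DDE plate. The DDE wells held DMSO, so that DDE and solvent differ together in every comparison on that plate. Cadmium at 25 µM rested on 2 libraries, since another one carried the name of plate 3153-AT and the barcode of plate 3284-AT and was set aside.

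Heme oxygenase opens the heme ring and yields biliverdin, carbon monoxide and ferrous iron. HMOX1 is the inducible form, held down by BACH1 and switched on by NRF2 with a small MAF partner, and HMOX2 is the constitutive form. Ferritin and transferrin receptor are also controlled after transcription, by iron regulatory proteins that bind stem-loops named iron-responsive elements: at the start of ferritin and ferroportin messages they block translation, and at the end of the transferrin receptor message they protect it from decay. RNA counts register the second effect and not the first.

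The stem-loops are shown because they divide the genes into those whose messages carry one and those whose messages do not. A search of the GENCODE v29 transcripts (GRCh38) for C, 5 bases, CAGTGN and 5 bases that pair with the first 5, G with T allowed, found 7 sites in 4 of the 10 genes. The capitals mark the loop CAGTGN, and each sequence runs 5′ to 3′ on the strand of the message.
FTH1, 5′ untranslated region, chr11:61967574-61967602, minus strand: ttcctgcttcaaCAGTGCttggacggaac
FTL, 5′ untranslated region, chr19:48965335-48965363, plus strand: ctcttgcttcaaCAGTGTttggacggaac
SLC40A1, 5′ untranslated region, chr2:189580661-189580689, minus strand: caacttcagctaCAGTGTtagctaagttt
TFRC site A, 3′ untranslated region, chr3:196050979-196051007, minus strand: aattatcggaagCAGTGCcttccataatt
TFRC site B, 3′ untranslated region, chr3:196050575-196050603, minus strand: cattatcgggagCAGTGTcttccataatg
TFRC site C, 3′ untranslated region, chr3:196050510-196050538, minus strand: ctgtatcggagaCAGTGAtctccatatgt
TFRC site D, 3′ untranslated region, chr3:196050463-196050491, minus strand: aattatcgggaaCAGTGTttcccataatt
The same pattern stood in the 5′ untranslated region of 36 of 19669 protein-coding genes (0.183%) and in the 3′ untranslated region of 132 (0.671%). HMOX1, at chr22:35380361-35394214 on the plus strand, had no match, nor did HMOX2, BLVRA, BLVRB, SLC48A1 or FECH.

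Levels are given as CPM, a gene's count scaled to the size of its library in each plate's fit, and a gene is called where edgeR's quasi-likelihood test gave a Benjamini-Hochberg adjusted p under 0.05 over all genes of the plate. At 25 µM, 8 of the 10 genes were called in at least 1 of 6 chemicals, 21 times higher and 5 times lower than the controls. Arsenic had 6 genes higher and 2 lower, where 41.4% of all tested genes were called. Thiram had 3 higher and 3 lower, against 25.9% of all genes. Lead had 5 higher, against 3.85% of all genes, and copper 3 higher, against 5.09%. Cadmium had 3 higher, against 11% of all genes. In mercury FTL alone was called, where 0.0617% of all genes were. DESeq2 called 6 higher and 1 lower in cadmium in place of 3, and scaling by library totals called HMOX1 and FTL higher and TFRC and FECH lower there (-1.49 ± 0.37 and -1.63 ± 0.33). In the other 5 of these chemicals DESeq2 gave the same counts. The median log2 fold change over the 10 genes was 1.64 in arsenic, 0.52 in lead, 0.41 in cadmium, 0.19 in copper, 0.17 in thiram and 0.13 in mercury. Over all tested genes the medians in the same order were 0.0014, -0.016, -1.42 (0.071 with DESeq2), -0.0050, -0.11 and -0.0045. In the pooled edgeR fit BLVRA and SLC40A1 were called in no chemical at any dose. Their unadjusted p was under 0.05 in 3 of 84 and 0 of 80 tests. With some libraries left out, edgeR called BLVRA higher in PFDA at 0.25 µM and lower in arsenic at 25 µM. DESeq2 called BLVRA in cadmium at 25 µM (0.61 ± 0.23).

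**Figure D1:**
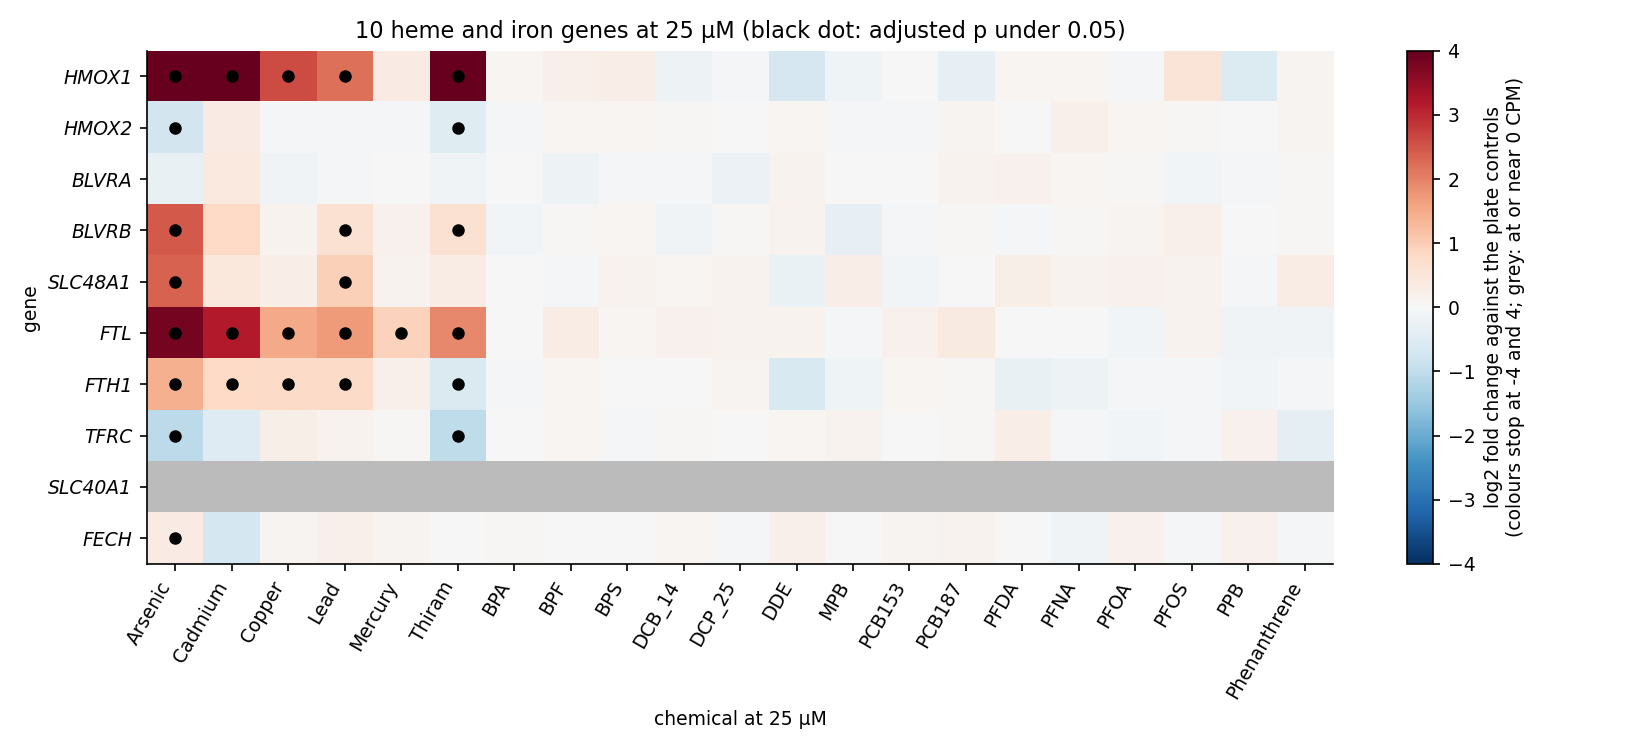
Log2 fold change of the 10 genes at 25 µM against the plate controls (colour), for 21 chemicals (columns), with a black dot where the adjusted p was under 0.05; colours stop at -4 and 4, and SLC40A1, at or near 0 CPM, is grey. Dots stand in the columns of arsenic, cadmium, copper, lead, mercury and thiram; the dot of FTH1 in cadmium turns to a log2 fold change of -0.15 when libraries are scaled by their totals.

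Library totals, in mega counts (M), lay between 1.43 and 25.8 M in the tested libraries, with plate medians of 6.42 to 13.8 M. The cadmium libraries at 25 µM had 1.43 and 1.45 M, the thiram libraries 2.46 to 6.29 M and the arsenic libraries 7.27 to 11.98 M, below the medians of 13.8 and 13.3 M on their plates. Fewer cells and less RNA per cell cannot be told apart in such wells, and the part of depth in the results was not tested. All 6 basal epithelial markers were above 1 CPM in the median library of every plate, with a sum of 1423 to 4981 CPM in the arsenic and cadmium libraries at 25 µM against 3354 to 4011 in their controls, and of 2365 to 3315 with thiram against 2344 to 3647. Of 4 luminal markers 2 were, with a sum of 46.4 to 68.4 CPM in the thiram libraries at 25 µM against 4.24 to 40.6 in their controls, and of 0 to 57.2 CPM with arsenic and cadmium against 14.1 to 46.1. Of 4 fibroblast markers 2 were, with sums of 11.1 to 47.6 CPM in the arsenic and cadmium libraries at 25 µM against 21.6 to 145.0 in their controls, and 4.14 to 27.1 against 29.4 to 78.7 for thiram. The part of these markers in the results was not tested. Leukocyte markers and erythroid markers summed to at most 3.55 and 2.76 CPM in the controls and 25 µM libraries of these 3 chemicals.

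HMOX1 was at a few CPM in control cells and had the largest fold change of the 10 genes in arsenic, cadmium and thiram at 25 µM. In the 15 water controls of plate 3153-AT it had between 1.41 and 12.4 CPM, with a median of 3.54. The arsenic libraries at 25 µM had 1743, 1580, 1950 and 1746 CPM, and the cadmium libraries 3794 and 4127 CPM. No dosed library came near the control range in either chemical. The log2 fold changes were 8.82 ± 0.24 (SE, n = 4 against 15, edgeR adjusted p = 1.34e-53) in arsenic and 9.99 ± 0.27 (n = 2 against 15, adjusted p = 1.15e-53) in cadmium. On the scale of library totals the cadmium libraries had 2026 and 2107 CPM against 1.503 to 13.97 in the controls. The cadmium library set aside had 0 HMOX1 counts of 1284517, which allows up to 2.34 CPM, and with it the cadmium fold change was 9.38 ± 0.38 on the log2 scale.

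Thiram was the only chemical outside the metals in which HMOX1 was called at 25 µM. Its 4 libraries had 201.6, 292.9, 369.7 and 328.7 CPM, and the 15 DMSO controls of plate 3284-AT between 0.236 and 10.7 with a median of 6.97. The groups did not overlap, and the log2 fold change was 5.57 ± 0.24 (edgeR adjusted p = 8.68e-40).

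The rise of HMOX1 with lead was small and that with copper was uneven. Lead at 25 µM gave 24.8, 15.3, 16.3 and 13.4 CPM, just above the highest control, with a log2 fold change of 2.19 ± 0.33 (edgeR adjusted p = 1.47e-06). Copper gave 39.8, 38.8, 6.30 and 6.25 CPM, so that the libraries numbered 1 and 2 stood above all controls and those numbered 3 and 4 within the control range. The pooled log2 fold change for copper was 2.60 ± 0.32 (adjusted p = 6.21e-10). Outside the DDE plate, dose and control groups fall into lower- and higher-numbered libraries. Within the lower-numbered ones alone the copper value was 3.46 ± 0.18 (adjusted p = 6.92e-26), while within the higher-numbered ones it was 0.19 ± 0.51 (adjusted p = 1.0). For lead the same values were 2.52 ± 0.21 (adjusted p = 7.25e-15) and 1.44 ± 0.41 (adjusted p = 0.031). These comparisons were not matched in depth. On plate 3153-AT the lower-numbered controls had 12.6 to 23.9 M counts and the higher-numbered ones 1.93 to 5.40 M. The copper libraries numbered 3 and 4 had 14.8 and 12.2 M. Mercury at 25 µM had 6.18, 4.25, 5.99 and 1.60 CPM of HMOX1, all inside the control range, with a log2 fold change of 0.32 ± 0.45 (adjusted p = 1.0).

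Below 25 µM, HMOX1 was called with cadmium and arsenic at 2.5 µM. Cadmium at 2.5 µM gave 321.6, 433.3, 67.4 and 145.7 CPM, all above the highest control, with a log2 fold change of 5.95 ± 0.25 (edgeR adjusted p = 1.44e-36), where 0.235% of all genes were called. The lower-numbered pair stood above the higher-numbered pair, with within-pair log2 fold changes of 6.73 ± 0.12 and 4.25 ± 0.28. Arsenic at 2.5 µM gave 17.1, 11.2, 39.2 and 35.1 CPM, 3 of 4 above the highest control, with a log2 fold change of 2.61 ± 0.35 (adjusted p = 6.64e-08), where 1.96% of all genes were called. Cadmium at 0.25 µM had 13.9, 9.67, 16.1 and 15.1 CPM, 3 of 4 above the highest control, and its log2 fold change of 1.84 ± 0.42 did not pass the test (adjusted p = 0.26), but did without the filter on low counts (adjusted p = 1.18e-04) and in a fit of that group and its controls alone (adjusted p = 0.0021).

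**Figure D2:**
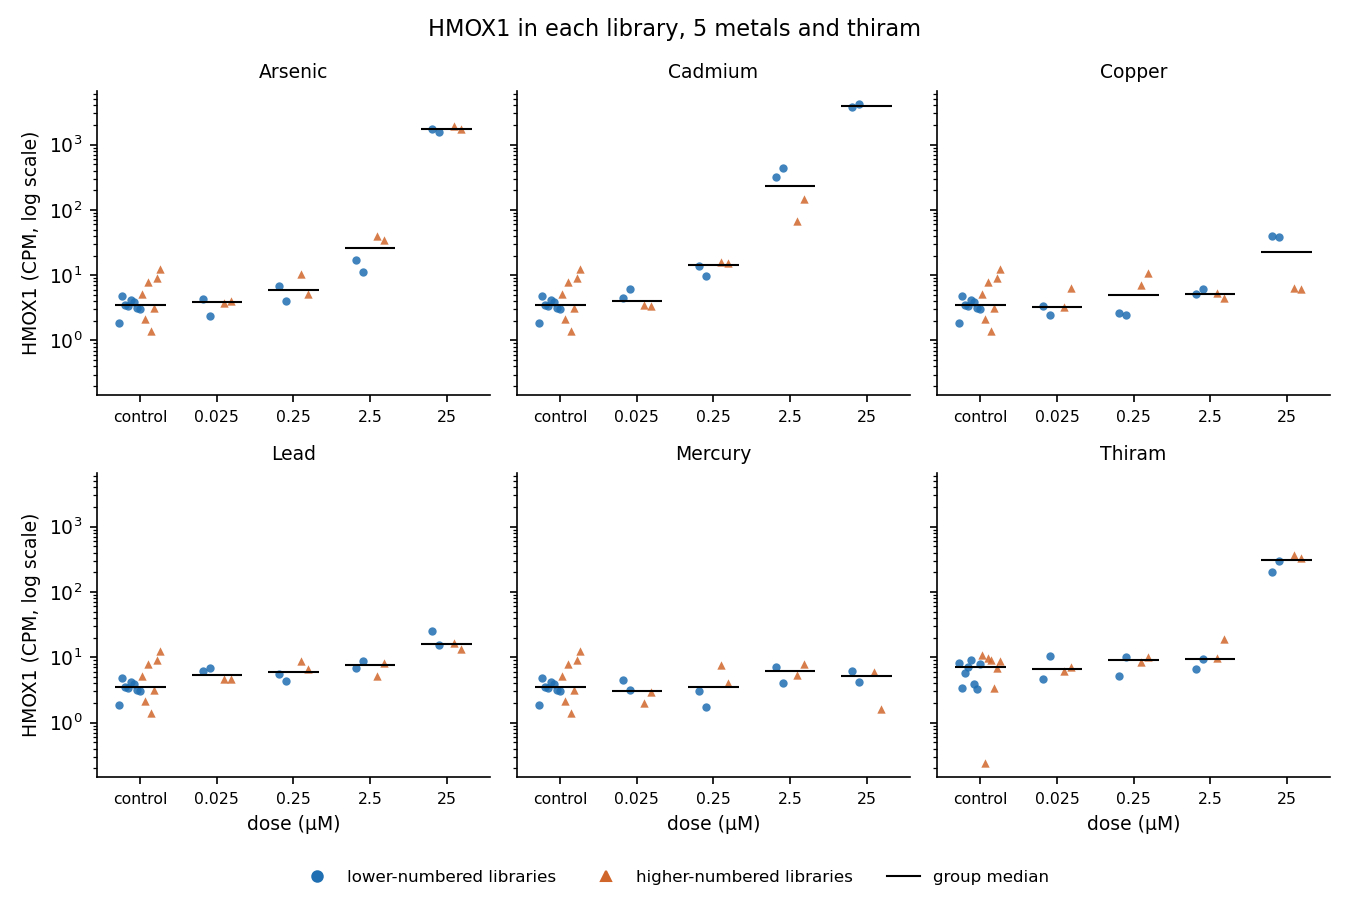
HMOX1 in CPM (log axis) in each library of 5 metals and thiram, by dose in µM, beside the plate controls; circles are lower-numbered and triangles higher-numbered libraries, and the bar is the group median. Arsenic and cadmium at 25 µM lie above 1500 CPM, the copper libraries at 25 µM split by number into 39.8 and 38.8 against 6.30 and 6.25 CPM.

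The 5 metals at 25 µM were ordered by HMOX1 as cadmium, arsenic, copper, lead and mercury, and 9 of the 10 pairs differed. Arsenic was lower than cadmium by a log2 difference of -1.17 ± 0.31 (edgeR adjusted p = 0.0060), a call that did not hold when libraries were scaled by their totals (-0.19 ± 0.32, adjusted p = 0.89), with DESeq2 (adjusted p = 0.079), with the cadmium library set aside (adjusted p = 0.51), or without replicate 1 or 2 (adjusted p = 0.072 and 0.12). Copper and lead, neighbours in this order, were not told apart, with a log2 difference of 0.41 ± 0.33 (adjusted p = 0.83). Lead exceeded mercury by 1.87 ± 0.43 (adjusted p = 0.016), though not past the threshold without replicate 1 or 2 (adjusted p = 0.26 and 0.099), and copper exceeded mercury by 2.29 ± 0.41 (adjusted p = 1.37e-04), lost without replicate 1 (adjusted p = 0.064). Arsenic and cadmium each differed from copper, lead and mercury by 6.21 or more on the log2 scale. The share of all genes called was 8.56% for arsenic against cadmium, 32.5% against copper, 33.1% against lead and 34.4% against mercury. For cadmium it was 9.29% against copper, 8.94% against lead and 9.99% against mercury. It was 0.827% for copper against lead, 1.51% for copper against mercury and 0.416% for lead against mercury.

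HMOX2, the constitutive heme oxygenase, was lower in arsenic and thiram, the chemicals in which edgeR called it, while HMOX1 was higher there. DESeq2 also called HMOX2 in cadmium, where it was higher (0.47 ± 0.17, adjusted p = 0.016, against 0.33 ± 0.23 and 0.53 by edgeR, and -0.61 ± 0.25 with library totals). With arsenic at 25 µM it had 66.1, 54.6, 62.7 and 72.8 CPM, all below the control range of 82.1 to 143 (median 103.1), a log2 fold change of -0.74 ± 0.11 (edgeR adjusted p = 2.96e-08). With thiram it had 115.3, 83.8, 52.99 and 33.1 CPM against 88.7 to 142.2 in the controls (median 106.7), and 1 dosed library lay inside the control range. The pooled value for thiram was -0.49 ± 0.13 (adjusted p = 0.0023). It rested on the higher-numbered libraries, with -1.27 ± 0.25 (adjusted p = 2.42e-05) there and -0.12 ± 0.16 (adjusted p = 0.77) among the lower-numbered ones, and without replicate 3 it was -0.36 (adjusted p = 0.086).

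The 2 biliverdin reductases, which turn biliverdin into bilirubin, differed. BLVRA, the form that takes the main biliverdin isomer of adult heme breakdown, had log2 fold changes between -0.31 and 0.39 over the 21 chemicals at 25 µM and was not called by edgeR with all libraries, while without replicate 1 it was lower in arsenic (-0.39 ± 0.15, adjusted p = 0.043). BLVRB, a flavin reductase that acts on another isomer, rose with arsenic at 25 µM to 339.7, 361.2, 273.4 and 276.1 CPM, far above the control range of 18.8 to 87.5 (median 58.7), a log2 fold change of 2.44 ± 0.16 (edgeR adjusted p = 1.59e-24). With thiram it had 88.7, 94.7, 82.9 and 65.4 CPM against 32.3 to 70.6 in the controls, a log2 fold change of 0.60 ± 0.18 (adjusted p = 0.0058, and 0.052 without replicate 2). With lead it had 95.7, 79.0, 88.7 and 83.7 CPM, 2 of 4 above the highest control, and 0.60 ± 0.18 (adjusted p = 0.035), a call that was lost without any 1 of the 4 lead replicates (adjusted p between 0.050 and 0.13).

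SLC48A1, also named HRG1, carries heme out of endosomes and lysosomes into the cytosol. With arsenic at 25 µM it had 99.5, 118.8, 139.6 and 159.6 CPM, all above the control range of 16.7 to 38.7 (median 26.2), a log2 fold change of 2.35 ± 0.13 (edgeR adjusted p = 6.56e-29). With lead it had 49.03, 53.1, 40.4 and 56.2 CPM, again all above the controls, and 0.96 ± 0.14 (adjusted p = 8.27e-07). Among the lower-numbered lead libraries the value was 1.17 ± 0.15 (adjusted p = 9.80e-09), and among the higher-numbered ones 0.51 ± 0.19 (adjusted p = 0.15). FECH, which inserts iron into protoporphyrin in the last step of heme synthesis, had 102.0, 91.0, 97.6 and 97.1 CPM with arsenic against 57.97 to 99.4 in the controls. Its groups overlapped, and its log2 fold change was 0.34 ± 0.11 (adjusted p = 0.0074). Among the higher-numbered libraries alone FECH had 0.39 ± 0.16 (adjusted p = 0.059).

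FTL, the ferritin light chain, was the gene called in most chemicals: arsenic, cadmium, copper, lead, mercury and thiram at 25 µM. The water controls of plate 3153-AT had 922 to 1733 CPM, with a median of 1369. Arsenic at 25 µM gave 20090, 19800, 16610 and 18720 CPM, a log2 fold change of 3.82 ± 0.11 (edgeR adjusted p = 1.03e-51), and cadmium gave 11690 and 12280 CPM, 3.17 ± 0.13 (adjusted p = 1.23e-37). Both lay far above the controls, without overlap. Lead gave 4797, 4601, 3663 and 4137 CPM, copper 4836, 4894, 2720 and 2905 CPM, and mercury 2584, 2219, 2597 and 2676 CPM. All 12 of these libraries were also above the highest control, with log2 fold changes of 1.69 ± 0.11 in lead, 1.53 ± 0.11 in copper and 0.92 ± 0.12 in mercury (adjusted p = 3.11e-22, 9.74e-20 and 6.39e-08). Thiram gave 6898, 6932, 8264 and 5423 CPM against 1423 to 2136 in its controls, 1.92 ± 0.13 (adjusted p = 8.20e-25). Mercury is the one of these chemicals in which FTL was called and HMOX1 was not; a difference between the 2 genes' responses was not tested.

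In the pooled fit FTL was also the gene called at the lowest dose of a metal. Lead at 0.25 µM gave 2486, 2552, 2344 and 2113 CPM, all above the highest control, with a log2 fold change of 0.83 ± 0.12 (edgeR adjusted p = 3.45e-06), where 0.123% of all genes were called. At 2.5 µM it rose by 1.22 ± 0.12 with lead, where 0.613% of all genes were called, by 1.01 ± 0.12 with copper, where 3% were, and by 0.65 ± 0.12 with cadmium, the last lost without replicate 2 (adjusted p = 0.066) and with the library set aside at 25 µM in the fit (adjusted p = 0.082). Arsenic at 2.5 µM gave 3441, 3704, 6011 and 3787 CPM and 1.67 ± 0.11 (adjusted p = 1.74e-21). Mercury at 2.5 µM gave 0.59 ± 0.12 and was not called in the pooled fit (adjusted p = 0.052). It was called with a term for library number (0.61 ± 0.08, adjusted p = 3.06e-07), within the lower- and the higher-numbered libraries (0.46 ± 0.06 and 0.77 ± 0.10), with library totals and without the filter on low counts. In other edgeR settings FTL was also called higher at 0.25 µM of copper and of arsenic. For copper these were no filter, a term for library number and the lower-numbered libraries alone. For arsenic they were the term and the higher-numbered libraries alone. FTH1 was called higher at 0.025 µM of copper in the higher-numbered libraries alone.

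FTH1, the heavy chain that oxidises iron as it enters ferritin, changed less than FTL and differed in direction between chemicals. Arsenic at 25 µM gave 15690, 14810, 13400 and 13850 CPM against 3194 to 7762 in the controls (median 6298), a log2 fold change of 1.43 ± 0.20 (edgeR adjusted p = 1.71e-09). Lead gave 10390, 11270, 6777 and 8353 CPM, with 0.78 ± 0.21 (adjusted p = 0.012). Copper gave 12880, 12530, 5587 and 5486 CPM, with 0.77 ± 0.21 (adjusted p = 0.012). Both of these groups overlapped the controls, and both calls were lost when replicate 1 or replicate 2 was left out (adjusted p between 0.065 and 0.23). Thiram gave 6172, 5856, 3889 and 3581 CPM against 5273 to 8906 (median 7509), and FTH1 fell there by 0.57 ± 0.13 on the log2 scale (adjusted p = 1.49e-04). At 2.5 µM FTH1 was higher with arsenic by 0.80 ± 0.21 (adjusted p = 0.016, and 0.066 without replicate 2).

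The FTH1 controls themselves split by library number. Depth split as well, with control medians of 20.9 M in the lower- and 3.17 M in the higher-numbered ones on plate 3153-AT. The same medians were 15.7 and 8.77 M on plate 3206-AT, 17.9 and 3.18 M on plate 3284-AT, and 14.4 and 6.73 M on plate 3240-AT with both solvents. The part of depth in the differences between controls was not tested. On plate 3153-AT the higher-numbered water controls were lower than the lower-numbered ones by a log2 difference of -0.96 ± 0.05 (edgeR adjusted p = 4.86e-27), on a plate where 20.3% of all genes differed between these controls. The differences were -0.40 ± 0.04 on plate 3206-AT and -0.46 ± 0.04 on plate 3284-AT, where 6.07% and 6.38% of all genes differed, and none of the 9 genes tested was called by edgeR on plate 3240-AT, where 0.546% did and 2 of the 9 had an unadjusted p under 0.05. FTL differed in the same direction by -0.43, -0.22 and -0.38 on the first 3 of these plates. On plate 3153-AT BLVRB was lower by -0.45 and SLC48A1 and TFRC higher by 0.58 and 0.54, and on plate 3206-AT FECH was lower by -0.43. Within each set of numbers the FTH1 calls kept their direction: arsenic had 1.17 ± 0.07 among the lower- and 2.05 ± 0.07 among the higher-numbered libraries, lead 0.64 ± 0.07 and 1.10 ± 0.08, copper 0.87 ± 0.07 and 0.65 ± 0.08, and thiram -0.49 ± 0.07 and -0.69 ± 0.10, with adjusted p of 1.65e-08 or less in each.

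In cadmium at 25 µM the direction of FTH1 depended on the scaling. The libraries had 9538 and 8969 CPM in the fit, above the highest control, and a log2 fold change of 0.79 ± 0.27 (edgeR adjusted p = 0.048), but -0.15 ± 0.25 (adjusted p = 0.95) when libraries were scaled by their totals, where they had 4403 and 5296 CPM against 3543 to 7379. With the library set aside the value was 0.66 ± 0.24 (adjusted p = 0.060), and without replicate 1 or 2 the adjusted p was 0.30 and 0.27. HMOX1 and FTL in cadmium kept their direction and their call under that scaling, at 9.08 and 2.22.

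The counts of the 2 ferritin messages shifted towards FTL. The log2 ratio of FTL to FTH1 counts was -1.95 ± 0.28 (SD, n = 15) in the water controls of plate 3153-AT, between -2.29 and -1.58. It was 0.38 ± 0.06 (n = 4) with arsenic, between 0.31 and 0.43, and 0.29 and 0.45 in the 2 cadmium libraries. With thiram it was 0.52 ± 0.42 (n = 4), between 0.16 and 1.09, against -1.99 ± 0.11 (n = 15) in its controls, between -2.16 and -1.80. None of these dosed libraries overlapped the controls. At 25 µM the ratio was also above all plate controls with lead, between -1.29 and -0.89, and with copper, between -1.41 and -0.92. With PFOS it was between -1.69 and -1.65 against -2.17 to -1.71 in the controls. With DDE it was between -1.88 and -1.41 against -2.64 to -2.11, where solvent and DDE differ together. With mercury it overlapped the controls, between -1.71 and -0.80. At 2.5 µM arsenic, cadmium, copper and lead lay above all controls as well. The ratio is between counts of 2 genes in the same library and does not depend on the scaling, and it is not a ratio of molecules.

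**Figure D3:**
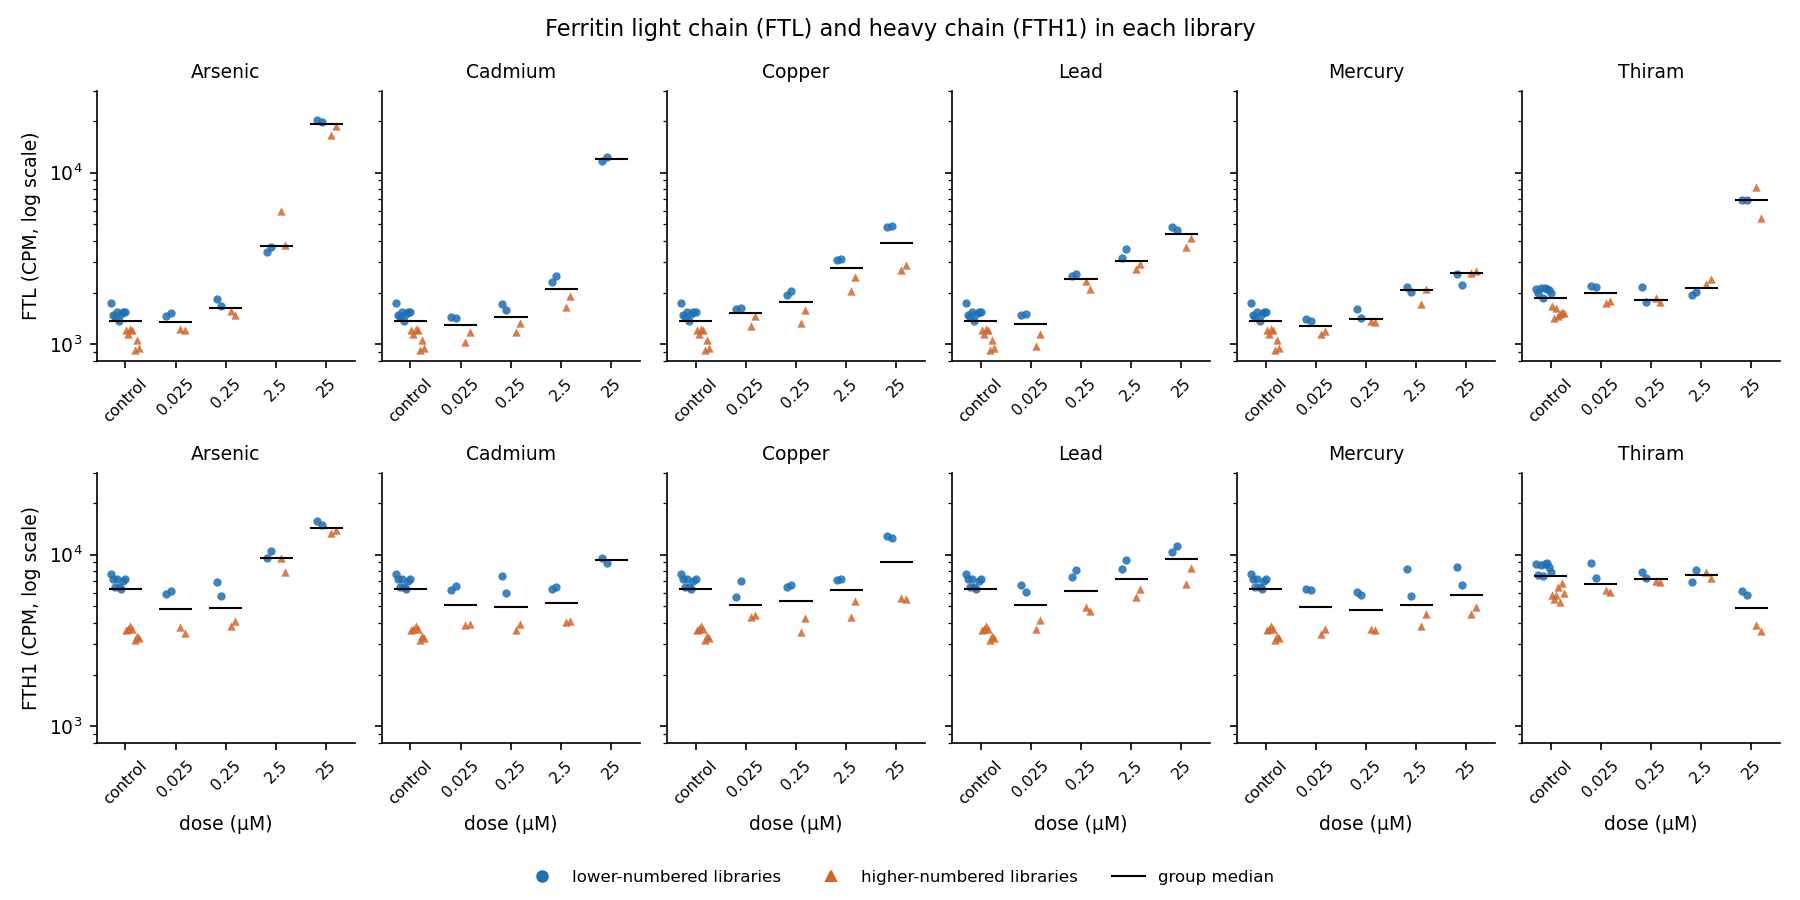
FTL (top) and FTH1 (bottom) in CPM (log axis) in each library, by dose in µM, beside the plate controls; circles are lower-numbered and triangles higher-numbered libraries, and the bar is the group median. FTL rises in all 6 panels at 25 µM, and the FTH1 controls of plate 3153-AT fall into a higher cluster of circles and a lower cluster of triangles.

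Ferritin pseudogenes could share reads with their parent genes. The symbols that start with FTH1P, 17 in the larger files, held between 1.43% and 7.20% of the FTH1 count per library, and those that start with FTLP between 0% and 1.45% of the FTL count.

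TFRC, which takes up transferrin-bound iron and carries the 4 stem-loops shown above, fell in 2 chemicals. With arsenic at 25 µM it had 135.0, 114.8, 126.4 and 153.5 CPM, all below the control range of 173.7 to 417.1 (median 277.0), and it fell by 1.06 ± 0.18 on the log2 scale (edgeR adjusted p = 2.77e-07). With thiram it had 132.3, 115.4, 119.4 and 120.0 CPM, again all below its controls of 136.2 to 314.1 (median 260.4), and it fell by 1.002 ± 0.13 (adjusted p = 9.12e-11). Within lower- and higher-numbered libraries the arsenic values were -0.86 ± 0.15 and -1.16 ± 0.15 and the thiram values -0.92 ± 0.14 and -1.17 ± 0.18, with adjusted p of 1.38e-06 or less. SLC40A1, the only known iron exporter of animal cells, was at or close to 0 in every group. Its highest value was 2.04 CPM among the controls of plates 3153-AT, 3206-AT, 3240-AT and 3284-AT and 1.56 CPM among the libraries at 25 µM, so that a change in it was not measurable at this depth.

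**Figure D4:**
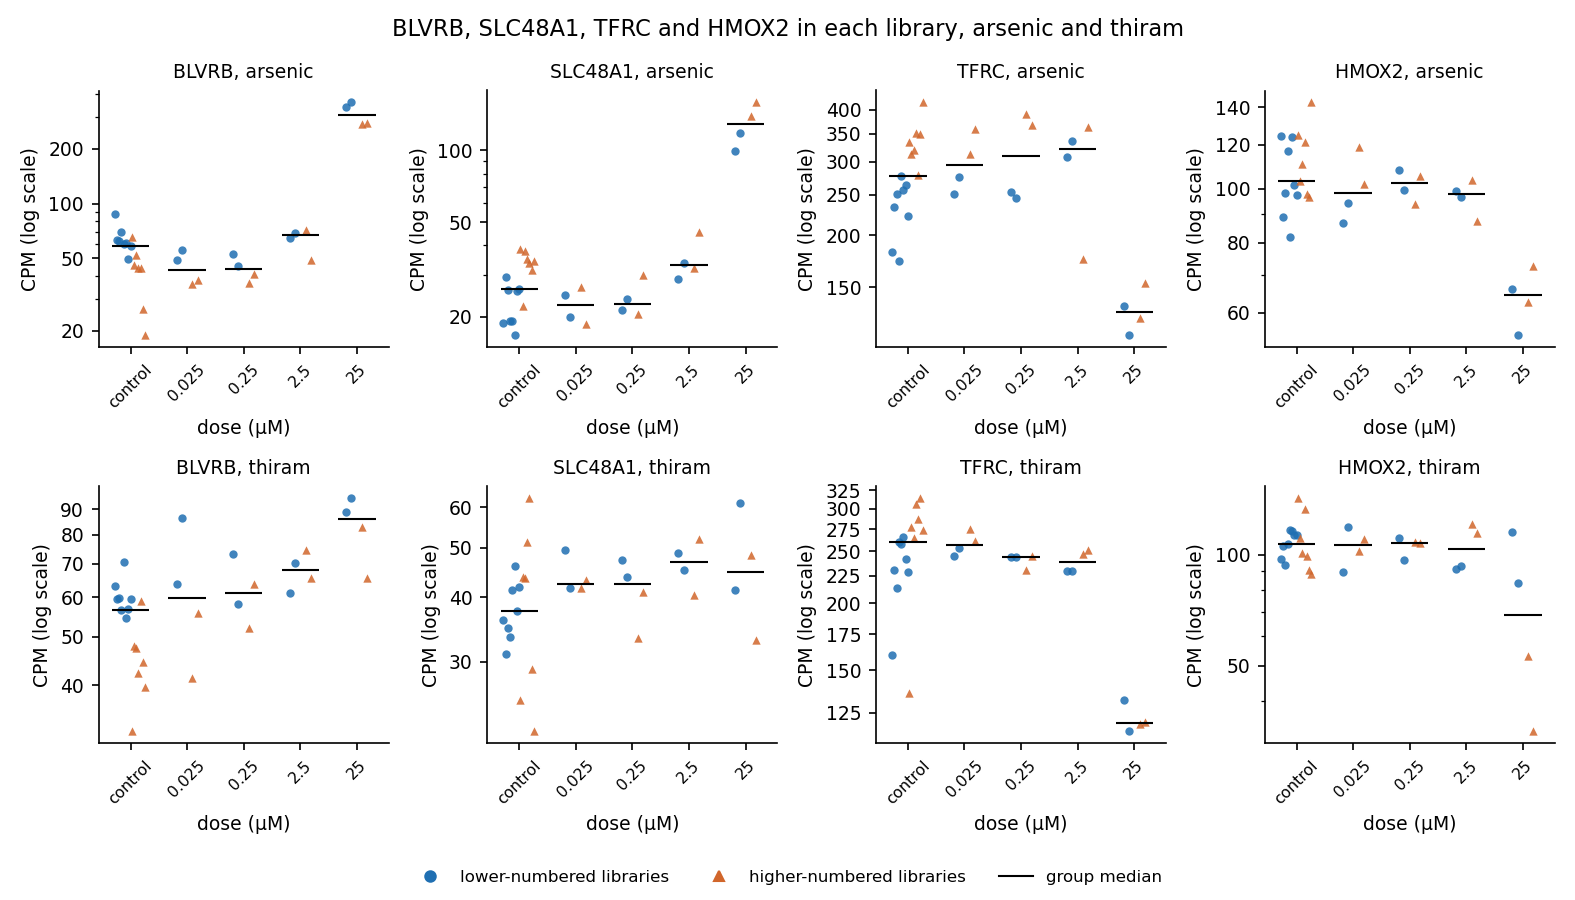
BLVRB, SLC48A1, TFRC and HMOX2 in CPM (log axes that differ between panels) in each library of arsenic (top) and thiram (bottom), by dose in µM, beside the plate controls; circles are lower-numbered and triangles higher-numbered libraries, and the bar is the group median. TFRC at 25 µM lies below all controls in both chemicals, and HMOX2 in thiram spreads from 33.1 to 115.3 CPM.

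Across the 4 doses, a linear trend was called 22 times. A slope is the change in log2 level per 10-fold dose. Arsenic had 6 rising and 2 falling genes, where 29.7% of all genes had a trend. Cadmium had 2 rising (8.96% of all genes), copper 2 (1.71%), lead 3 (0.868%) and mercury 1 (0.0494%), and thiram 2 rising and 3 falling (18.5%), where the fall of HMOX2 was lost without replicate 2, 3 or 4 (adjusted p between 0.12 and 0.22), under RLE scaling (0.085) and in the dosed libraries alone with or without the replicate block (0.088 and 0.092). In lead SLC48A1 was lost without replicate 1 or 2 (adjusted p = 0.28 and 0.25) and with library totals (0.070), and in arsenic FECH without replicate 1 (adjusted p = 0.062). The slopes of HMOX1 were 3.36 ± 0.14 in cadmium, 2.86 ± 0.13 in arsenic, 1.64 ± 0.12 in thiram, 0.77 ± 0.13 in copper and 0.52 ± 0.13 in lead. The HMOX1 trend was lost in lead without replicate 1, 2 or 4 (adjusted p between 0.055 and 0.31) and in copper without replicate 1 (adjusted p = 0.064). The FTL slopes ran from 0.34 ± 0.05 in mercury to 1.27 ± 0.05 in arsenic. With the replicate number as a block, in the dosed libraries of 1 chemical alone, copper had 4 rising genes, lead 7 and mercury 3, and PFOA had TFRC falling. The same libraries without the block gave 2 in copper, 6 in lead, 1 in mercury and none in PFOA. The fit of the whole plate gave 2, 3, 1 and none.

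TFRC had a falling trend in phenanthrene as well, with a slope of -0.27 ± 0.06 (edgeR adjusted p = 0.010), where 0.221% of all genes had a trend. That call was lost without replicate 1, 2 or 4 (adjusted p between 0.078 and 0.23). At single doses of phenanthrene TFRC was not called by edgeR, with 0.39 ± 0.14 at 0.025 µM (adjusted p = 0.38) and -0.38 ± 0.15 at 25 µM (adjusted p = 0.92), but without the filter on low counts it was higher at 0.025 µM (adjusted p = 0.0018). The same setting called TFRC higher at 0.025 µM of BPA, BPS, PFDA, PFOA and PFOS. In the pooled fit its median over the 21 chemicals at that dose was 0.14. In the dosed libraries of 1 chemical alone TFRC also fell in PFNA, PFOA and PFOS with the replicate block. Without the block it fell in PFOS too.

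The step from 2.5 to 25 µM was called 15 times, for 8 genes. It was called for 7 genes in arsenic (31.1% of all genes), 2 in cadmium (9.64%), 5 in thiram (20.2%) and for HMOX1 in copper (0.259%). HMOX1 rose over this step by 6.21 ± 0.34 with arsenic, 4.78 ± 0.32 with thiram and 4.05 ± 0.32 with cadmium, and FTL by 2.15 ± 0.16, 1.68 ± 0.19 and 2.52 ± 0.18. The copper call for HMOX1 was lost without replicate 1 or 2 (adjusted p = 0.41 and 0.065), that for FECH in arsenic without replicate 1 or 3 (adjusted p = 0.075 and 0.15), and that for HMOX2 in thiram without replicate 3 or 4 (adjusted p = 0.49 and 0.30).

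In the other 15 chemicals no gene of the 10 was called by edgeR in the pooled fit at 25 µM, and 10 of 149 tests had an unadjusted p under 0.05. Their HMOX1 log2 fold changes ran from -0.68 in DDE to 0.51 in PFOS, and those of FTL from -0.14 in Phenanthrene to 0.36 in PCB187. Other edgeR settings did call genes at 25 µM. FTL was higher in BPF and FTH1 lower in PFDA without the filter on low counts and with a term for library number. Both were also called within the lower- and within the higher-numbered libraries. MPB, PCB187, PFNA, PFOS and BPS had calls in some of these settings. In the pooled fit FTH1 came nearest to a call, with -0.31 ± 0.08 in PFDA (edgeR adjusted p = 0.072) and -0.60 ± 0.22 in DDE (adjusted p = 0.076), and DESeq2 called both (adjusted p = 0.024 and 0.037). In DDE the 4 doses had -0.52 to -0.66 with no order by dose. FTH1 was called lower at 0.25 and 2.5 µM of DDE too by DESeq2 (adjusted p = 0.044 and 0.042). An edgeR fit of the 25 µM group and its controls alone also called it (adjusted p = 0.048). With an edgeR term that set apart the libraries numbered 1, 8, 9 and 16, FTH1 was called at all 4 doses (-0.57 to -0.73, adjusted p of 2.16e-04 or less). That term is not the split into lower and higher numbers used on the other plates. Solvent and DDE cannot be told apart in these values. The share of all genes called was 7.77% in DDE, 1.38% in MPB, 0.0668% in both PFDA and PFOS, 0.0235% in PCB187 and 0.0179% in BPF. It was 0.00514% in PFNA, 0.00469% in DCB_14 and PCB153, 0.00448% in BPA and PPB and 0% in BPS, PFOA, Phenanthrene and DCP_25. The water and DMSO controls of plate 3240-AT differed in 4.08% of all genes and in none of the 10 by edgeR, 3 of which had an unadjusted p under 0.05, while DESeq2 called SLC48A1.

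In the pooled edgeR fit, the only group outside the metals with a call below 25 µM was PCB153 at 0.25 µM. It had HMOX1 at 14.9, 2.23, 79.9 and 2.32 CPM and FTL at 1981, 1821, 8403 and 1684 CPM. Both were called, at log2 fold changes of 1.96 ± 0.34 and 0.93 ± 0.14, where 0.333% of all genes were. Replicate 3 was the library high in both genes, and without replicate 3 the values were -0.05 ± 0.41 and 0.0085 ± 0.093. Other settings gave further calls below 25 µM, such as those of FTH1 in DDE given above. Without the filter on low counts edgeR called TFRC or FTH1 there in BPA, BPF, BPS, MPB, PFDA, PFNA, PFOA, PFOS and phenanthrene.

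Over the 84 groups of 1 chemical and dose, the changes of HMOX1 and FTL from the plate controls went together, with a Pearson r of 0.87. It was 0.58 over the 81 groups without arsenic, cadmium and thiram at 25 µM. Each r here was taken over differences of mean log2(CPM + 1), not over the edgeR log2 fold changes. Groups of 1 plate share their controls, so these are descriptions. Of 13839 genes measured in all groups, the 5 most like HMOX1 were HSPA6, ZFAND2A, HSPA1A, SAT1 and HSPH1, with r from 0.90 to 0.94, and from 0.51 to 0.79 without those 3 groups. HSPA6, HSPA1A and HSPH1 encode heat shock proteins, and SAT1 an enzyme that acetylates polyamines. The 5 most like FTL were GCLM, CYP4F11, the ferritin pseudogene FTLP3, TXN and SQSTM1, with r from 0.94 to 0.95, and from 0.80 to 0.93 without them. GCLM is a subunit of the enzyme that limits glutathione synthesis, TXN is thioredoxin, and SQSTM1 is the autophagy receptor p62. BLVRB had an r of 0.83 with FTL, FTH1 0.75, SLC48A1 0.65, BLVRA 0.0055, FECH -0.21, HMOX2 -0.47 and TFRC -0.61. Without those 3 groups the same values were 0.59, 0.78, 0.41, -0.036, 0.076, -0.20 and -0.088.

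**Figure D5:**
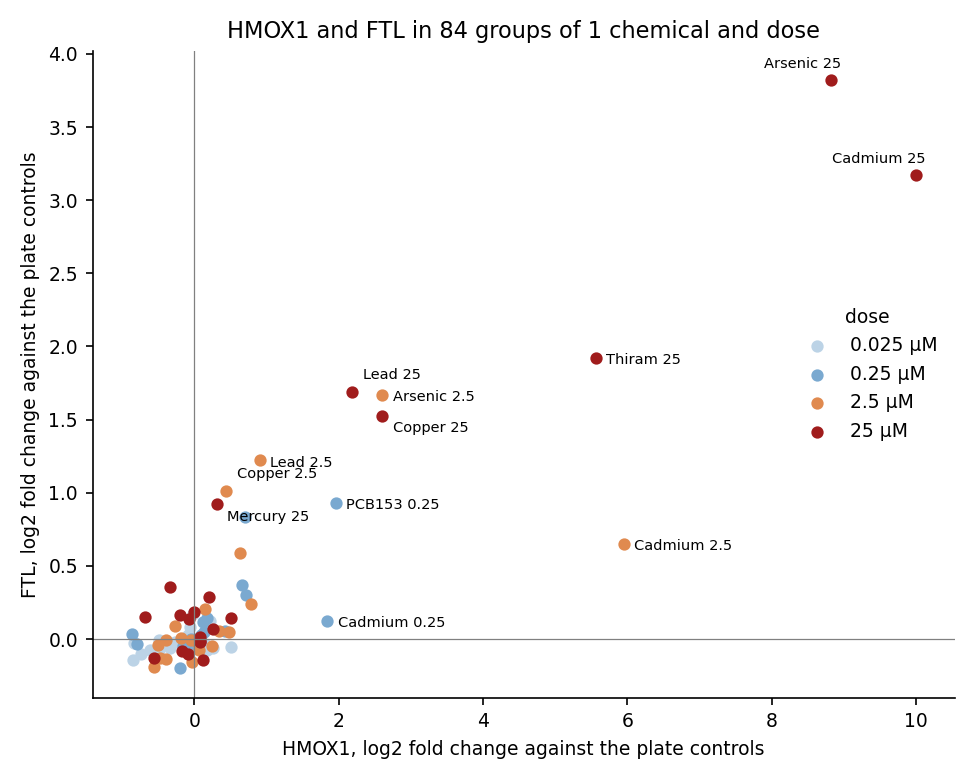
Log2 fold change of FTL (vertical) against that of HMOX1 (horizontal) in 84 groups of 1 chemical and dose, coloured by dose, with the groups of large change named. Arsenic and cadmium at 25 µM lie farthest out, and cadmium at 2.5 µM has an HMOX1 change of 5.95 beside an FTL change of 0.65.

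Of 8 genes of heme synthesis listed beside FECH, ALAS1 was the 1 called higher. ALAS1, the rate-limiting first enzyme of heme synthesis outside the erythroid lineage, rose with arsenic from 44.3 ± 9.55 (SD, n = 15) to 193.3 ± 10.2 CPM (n = 4), and was also higher with cadmium, copper, lead and thiram at 25 µM, by log2 fold changes of 1.43 ± 0.29, 0.66 ± 0.12, 1.34 ± 0.11 and 1.48 ± 0.16. Of the 8, 6 were lower with arsenic, among them UROS (-1.07 ± 0.13). In thiram 4 of 7 tested were lower, among them UROS (-1.29 ± 0.17) and PPOX (-1.27 ± 0.24). In cadmium CPOX was lower (-2.53 ± 0.86), and in copper PPOX (-0.78 ± 0.18). The share of all genes called in either direction was 41.4% in arsenic, 25.9% in thiram, 11% in cadmium, 5.09% in copper and 3.85% in lead.

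Among 9 genes for heme transport and binding, 3 were higher and 4 lower with arsenic, 2 higher and 2 lower with thiram, 2 higher with lead and 1 higher with cadmium. In the same order 41.4%, 25.9%, 3.85% and 11% of all tested genes were called. The heme chaperones PGRMC2 and PGRMC1 were higher with arsenic (1.46 ± 0.15 and 0.53 ± 0.09) and with lead (0.66 ± 0.15 and 0.30 ± 0.09), and PGRMC2 with thiram (0.99 ± 0.22). ABCB10, a mitochondrial transporter, was lower with arsenic (-1.96 ± 0.25). With thiram the heme exporter FLVCR1 was higher (0.62 ± 0.18) and FLVCR2 lower, at 0.176 against 4.51 CPM. HPX, which encodes the plasma heme scavenger hemopexin, had 6.28 and 16.8 CPM in the cadmium libraries (5 and 12 counts) and 0 counts in all 15 controls. Set against a limit of 3 counts over the controls, the value of the lower of the 2 libraries was 390-fold higher, and 220-fold with library totals. These folds leave out the sampling error of its 5 counts.

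Of 20 further genes of iron handling, 17 were tested on plate 3153-AT and 16 on plate 3284-AT. With arsenic 8 were lower and 1 higher, with thiram 5 lower, with cadmium 3 lower, with copper 2 lower and 1 higher, and with lead 1 lower. In the same order 41.4%, 25.9%, 11%, 5.09% and 3.85% of all tested genes were called in either direction. STEAP3, the endosomal reductase that works beside the transferrin receptor, was lower with arsenic (-2.05 ± 0.14) and cadmium (-2.44 ± 0.47). IREB2, an iron regulatory protein, and HFE were lower with arsenic (-0.71 ± 0.15 and -1.74 ± 0.36). NCOA4, the receptor that takes ferritin to the lysosome, and the iron importer SLC11A2 were lower with cadmium (-0.76 ± 0.23 and -1.78 ± 0.63). On the same scale the cadmium median was -1.35 over the tested genes of this list and -1.42 over all tested genes. Over all genes the edgeR median was -1.25 under RLE scaling and -2.13 with library totals, and the DESeq2 median was 0.071. Falls in cadmium thus depend on the scaling and on the tool, and the cause was not tested. With arsenic NCOA4 was the 1 gene of the list that was higher (0.41 ± 0.10), and SLC11A2 was lower (-0.67 ± 0.18); both were named after their values were seen. SLC11A2, the metal importer SLC39A8 and the iron regulatory protein ACO1 were lower with thiram (-1.29 ± 0.24, -2.12 ± 0.27 and -0.94 ± 0.23). In copper HFE was lower (-0.88 ± 0.26) and FBXL5, which targets iron regulatory protein for degradation, higher (0.32 ± 0.10). LTF had 0 counts in the 4 copper and the 4 lead libraries and between 0 and 8.46 CPM in the controls, 7 of 15 of them at 0. In DDE the mitochondrial iron importer SLC25A37 was higher (0.52 ± 0.16).

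Of the 6 regulators of HMOX1, all 6 were higher with arsenic and 5 with thiram, where 41.4% and 25.9% of all genes were called. MAFF, MAFG and MAFK, the small MAF partners, were higher with arsenic (2.03 ± 0.13, 2.11 ± 0.15 and 2.70 ± 0.35) and thiram (1.30 ± 0.14, 2.35 ± 0.15 and 2.86 ± 0.42). MAFG was also higher with cadmium, lead and copper (2.22 ± 0.37, 0.92 ± 0.16 and 0.77 ± 0.16), and MAFF with cadmium and copper (2.69 ± 0.25 and 0.56 ± 0.14). KEAP1, the adaptor that marks NRF2 for degradation, was lower with cadmium (-3.67 ± 0.44), at 8.86 CPM in the mean of 2 libraries against 118.8. MAFK was lower with DDE (-1.82 ± 0.55). The median log2 fold change of the 4 lists was -0.77, -0.60, -0.44 and 1.55 with arsenic for synthesis, transport, iron handling and regulators, and -0.53, 0.62, -0.52 and 1.45 with thiram, beside 0.0014 and -0.11 over all tested genes. With cadmium the 4 medians were -0.39, -0.275, -1.35 and -0.10, beside -1.42 over all tested genes (0.071 with DESeq2).

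Promoters of 8 of the 10 genes were listed in RefSeq (GRCh38.p14, 250 bases before to 50 after the start). The core of the antioxidant response element, TGACNNNGC on either strand, stood in 1 of them, that of FECH, on the reverse strand, and in 13.3% of 35116 promoters. HMOX1 and FTH1 were not among those listed.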

How the data were processed

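Gene counts of 402 MCF10A libraries were used as deposited. The authors used FastQC, MultiQC, STAR and featureCounts with GRCh38, per the submitters' processing notes; annotation, strand setting and versions were not given in the sources used here. Each plate was fitted alone in R 4.3.3 with edgeR 4.0.16 (limma 3.58.1): TMM scaling, filterByExpr with a minimum count of 10 and total of 15, quasi-likelihood tests, and Benjamini-Hochberg adjustment over all genes of the plate at 0.05. Alternatives were DESeq2 1.42.0, RLE scaling, library totals (chosen after seeing the data), no filter, library number, and leaving out replicates.

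The 10 genes and all lists were chosen with earlier results of these data known. Named genes were the 10, the 5 most like HMOX1 and FTL, and up to 3 called genes per list and chemical with the smallest p. A gene that this rule names is not reported here. The labels call wells biological replicates; where wells share a culture, p-values measure spread between wells. Every same-numbered pair of dosed libraries correlated over 0.1 in copper, lead, mercury and PFOA, and the numbers were taken to pair those libraries. Differently numbered libraries were not compared, so the check cannot tell pairing from the split into lower and higher numbers. 1 cadmium library with conflicting plate labels was set aside, and 401 were tested. The scripts were tested on simulated data.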

Additional observations from a re-analysis of the deposited data

Results flagged for a closer look

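In 3 of 33 groups of 4 libraries checked, the highest library stood farther from the other libraries than Dixon's 95% limit allows. The groups checked were those behind calls, and some share libraries. The rate of about 1 in 20 for independent, unselected groups therefore does not apply to them. FTL in arsenic at 2.5 µM had 1 library at 6011 CPM. In PCB153 at 0.25 µM the same library was high in both genes, with 8403 CPM of FTL and 79.9 CPM of HMOX1.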

How the results depend on the processing

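Of 811 alternative values for 73 called results, 761 kept their direction and their call, 47 lost the call and 3 turned. FTH1 in cadmium at 25 µM was -0.15 with library totals. In PCB153 at 0.25 µM FTL was -0.094 in lower-numbered libraries alone, and HMOX1 ran from -0.046 to 2.37 with 1 replicate left out. The 5 calls lower at 25 µM became 8 with DESeq2 and 8 in lower-numbered libraries alone. The 10 calls below 25 µM became 26 without the filter, 19 with a term for library number, 30 in lower-numbered and 27 in higher-numbered libraries alone. The 15 steps became 23 with a term for library number. The 72 calls among other genes became 43 in higher-numbered libraries alone, and the 0 solvent calls became 1 with DESeq2. The cause was not tested.

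With the replicate block the 22 trends became 38, against 27 without the block in the same libraries. Outside copper, lead, mercury and PFOA, whose numbers were taken to pair their libraries, this count rests on shared numbers alone. Without 1 replicate, calls at 25 µM were 16 to 20 higher and 4 to 8 lower, calls below it 8 to 13, trends 18 to 21, steps 13 to 14, HMOX1 pairs 6 to 9 and other genes 60 to 64. RLE scaling moved the median of all genes by 0.14 in arsenic and 0.17 in cadmium at 25 µM, library totals by -0.71 in cadmium, and DESeq2 by 0.15, 1.49 and 0.10 in arsenic, cadmium and thiram. At this depth a change in SLC40A1 was not measurable.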
